A study of Mus musculus with 28 samples.

Results

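The genes described here are 9 members of the Wnt pathway: the ligands *Wnt5a*, *Wnt5b*, *Wnt6* and *Wnt11*, the receptor *Fzd1*, the secreted modulators *Sfrp1* and *Rspo3*, the DNA-binding effector *Tcf7l1* and the feedback gene *Axin2*. They were taken by symbol, as the probes of the array that the platform annotation assigns to these 9 names. The names were chosen with earlier results of these data known, so how many of them were called is no test of the pathway. The annotation gave 16 such probes, and all 16 passed the filter on dim probes, so that the 9 genes are 9 of the 13373 genes tested.

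Wnt proteins are secreted ligands that bind Frizzled receptors. In the branch that works through beta-catenin, binding of a Wnt stops the Axin complex from destroying beta-catenin, which then joins TCF/LEF proteins on DNA. *Wnt5a*, *Wnt5b* and *Wnt11* are better known for branches that do not need beta-catenin and that steer cell polarity and movement. Sfrp proteins bind Wnts outside the cell, R-spondins keep Frizzled receptors on the cell surface, *Tcf7l1* mostly represses TCF targets, and *Axin2* is switched on by the pathway and restrains it. In the somite, Wnts of the neural tube and the surface ectoderm favour the dermomyotome, while hedgehog of the notochord favours the sclerotome, from which vertebrae and intervertebral discs (IVD) form.

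RNA came from cells sorted by EGFP from dissected vertebral columns of E12.5 mouse embryos of a mixed 129Sv/C57BL/6/129X1/129S1 background. In *Pax1 WT:+/EGFP* embryos, called WT here, EGFP is made together with a functional Pax1 protein from 1 *Pax1* allele. In *Pax1+/-* and *Pax1-/-* embryos EGFP interrupts the paired box in exon 2 of *Pax1*, and in *Pax1-/-Pax9+/-* and *Pax1-/-Pax9-/-* embryos an EGFP insertion also interrupts exon 2 of 1 or both *Pax9* alleles. Every EGFP(+) group was therefore sorted on a targeted *Pax1* locus, and the compound mutants also carry EGFP at *Pax9*. There were 3 replicates of EGFP(−) cells, 5 of WT (names 2, 3, 4, 5 and 7), 5 of *Pax1+/-*, 5 of *Pax1-/-*, 3 of *Pax1-/-Pax9+/-* and 3 of *Pax1-/-Pax9-/-*, and each replicate pooled 2 vertebral columns. The EGFP(−) labels name no genotype, and the study's text compares EGFP(+) with EGFP(−) cells in WT, *Pax1+/-* and *Pax1-/-*. So the genotype of these 3 replicates is not known, and EGFP(+) and EGFP(−) cells may differ in genotype as well as in the sort. The text on sorting names EGFP(+) cells for every sample, and the 3 EGFP(−) samples were taken from their titles and labels.

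The 24 replicates lie on 28 arrays and 5 chips. Chip 1 held all 6 compound mutant arrays and nothing else, chip 2 held 3 *Pax1-/-* and 2 WT arrays, and chips 3, 4 and 5 held the rest, with 1 EGFP(−) array each. By their chip numbers, chips 3 to 5 form series A and chips 1 and 2 series B. The share of probes detected was 45.4 to 50.6% in series A and 42.2 to 44.2% in series B. So a compound mutant cannot be told apart from its chip in a comparison with WT or *Pax1-/-*, whereas *Pax1-/-Pax9-/-* and *Pax1-/-Pax9+/-* share a chip. *Pax1* was at 8.57, 7.66 and 4.71 on the log2 scale in EGFP(−) replicates 1, 2 and 3, which lie on chips 5, 3 and 4. In the EGFP(+) replicates it was at 10.54 to 11.53. So the EGFP(−) replicates differed in *Pax1* signal, and the part of this in the differences from EGFP(+) cells was not tested. The *Pax1* probes also read the interrupted alleles and do not check the null. The single *Pax9* probe was at 4.73 and 4.77 in *Pax1-/-Pax9-/-* replicates 2 and 3, but at 6.85 in the library labelled *Pax1-/-Pax9-/-* replicate 1, within the 6.58 to 6.94 of *Pax1-/-Pax9+/-*. On this probe that library goes against its label. Its *Pax1* level of 10.54 lay near the 10.63 of replicates 2 and 3 and below the 11.06 to 11.13 of *Pax1-/-Pax9+/-*. Whether its label is wrong was not tested, and differences of the 9 genes in *Pax1-/-Pax9-/-* are given with and without it. Of 10 sclerotome and disc genes, 8 were higher in WT than in EGFP(−) cells, *Sox9* and *Foxc2* among them. The other 2 were not called, among them *Nkx3-2* at 4.47 and 4.37. These 10 genes include *Pax1*, whose rise was fixed by the sort, and *Pax9*.

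The start regions of these genes were searched for CTTTGAT, the core of the TCF/LEF motif, on both strands (ATCAAAG on the other), because *Tcf7l1* is itself a member and *Axin2* a textbook target. RefSeq (GRCm38.p6) gave 9 windows, from 250 bases before to 50 after a start, for 6 of the 9 genes. The core was in 2 of these 9 windows, against 1225 of 32851 windows of all genes (3.73%). The 4 windows shown belong to genes that the comparisons turn on or that hold the core, printed along the strand of the gene with the core in capitals.
*Wnt5b*, chr6:119449337-119449636, minus strand, core on the same strand at -71 from the start: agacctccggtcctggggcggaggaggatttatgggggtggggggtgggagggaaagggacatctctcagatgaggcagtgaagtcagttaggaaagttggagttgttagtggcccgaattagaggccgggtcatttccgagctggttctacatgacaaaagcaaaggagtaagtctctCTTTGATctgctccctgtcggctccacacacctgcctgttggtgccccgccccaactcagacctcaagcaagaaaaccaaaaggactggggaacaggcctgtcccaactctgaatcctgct
*Wnt11*, chr7:98834862-98835161, plus strand, core on the opposite strand at -51 from the start: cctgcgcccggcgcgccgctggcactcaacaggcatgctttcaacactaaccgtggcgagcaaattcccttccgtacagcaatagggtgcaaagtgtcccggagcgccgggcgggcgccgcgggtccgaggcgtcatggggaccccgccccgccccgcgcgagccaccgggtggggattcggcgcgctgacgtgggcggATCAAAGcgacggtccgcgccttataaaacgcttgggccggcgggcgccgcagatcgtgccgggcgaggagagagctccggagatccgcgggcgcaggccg
*Axin2*, chr11:108920099-108920398, plus strand, no core: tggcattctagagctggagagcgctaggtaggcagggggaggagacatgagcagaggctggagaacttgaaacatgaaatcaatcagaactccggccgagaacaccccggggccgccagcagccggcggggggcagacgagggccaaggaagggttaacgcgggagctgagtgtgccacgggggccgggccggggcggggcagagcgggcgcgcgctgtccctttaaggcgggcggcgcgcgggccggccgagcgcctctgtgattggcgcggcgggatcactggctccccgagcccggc
*Fzd1*, chr5:4758167-4758466, minus strand, no core: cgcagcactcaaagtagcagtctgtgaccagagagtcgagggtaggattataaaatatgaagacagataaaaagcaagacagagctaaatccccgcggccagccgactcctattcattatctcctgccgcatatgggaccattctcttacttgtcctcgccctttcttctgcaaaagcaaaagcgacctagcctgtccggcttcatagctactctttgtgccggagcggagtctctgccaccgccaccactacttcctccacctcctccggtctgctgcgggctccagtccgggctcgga
*Wnt5b* has 2 further windows and *Wnt11* 1 further window, all without the core, as are the windows of *Wnt6* and *Tcf7l1*. A match of these letters is a description of the sequence only.

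Levels are log2 intensities after background correction and quantile normalization, and probes of 1 gene were averaged. They were compared with limma over all 13373 genes, and calls needed both an FC (fold change) of at least 1.5 and an adjusted p, by Benjamini-Hochberg, below 0.05. The plot of levels by replicate shows that *Wnt5a*, *Fzd1* and *Tcf7l1* differed mainly between EGFP(−) and EGFP(+) cells. *Wnt5b*, *Rspo3*, *Sfrp1* and *Axin2* also differed among the EGFP(+) genotypes, and *Wnt6* was called only among these.

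**Figure D1:**
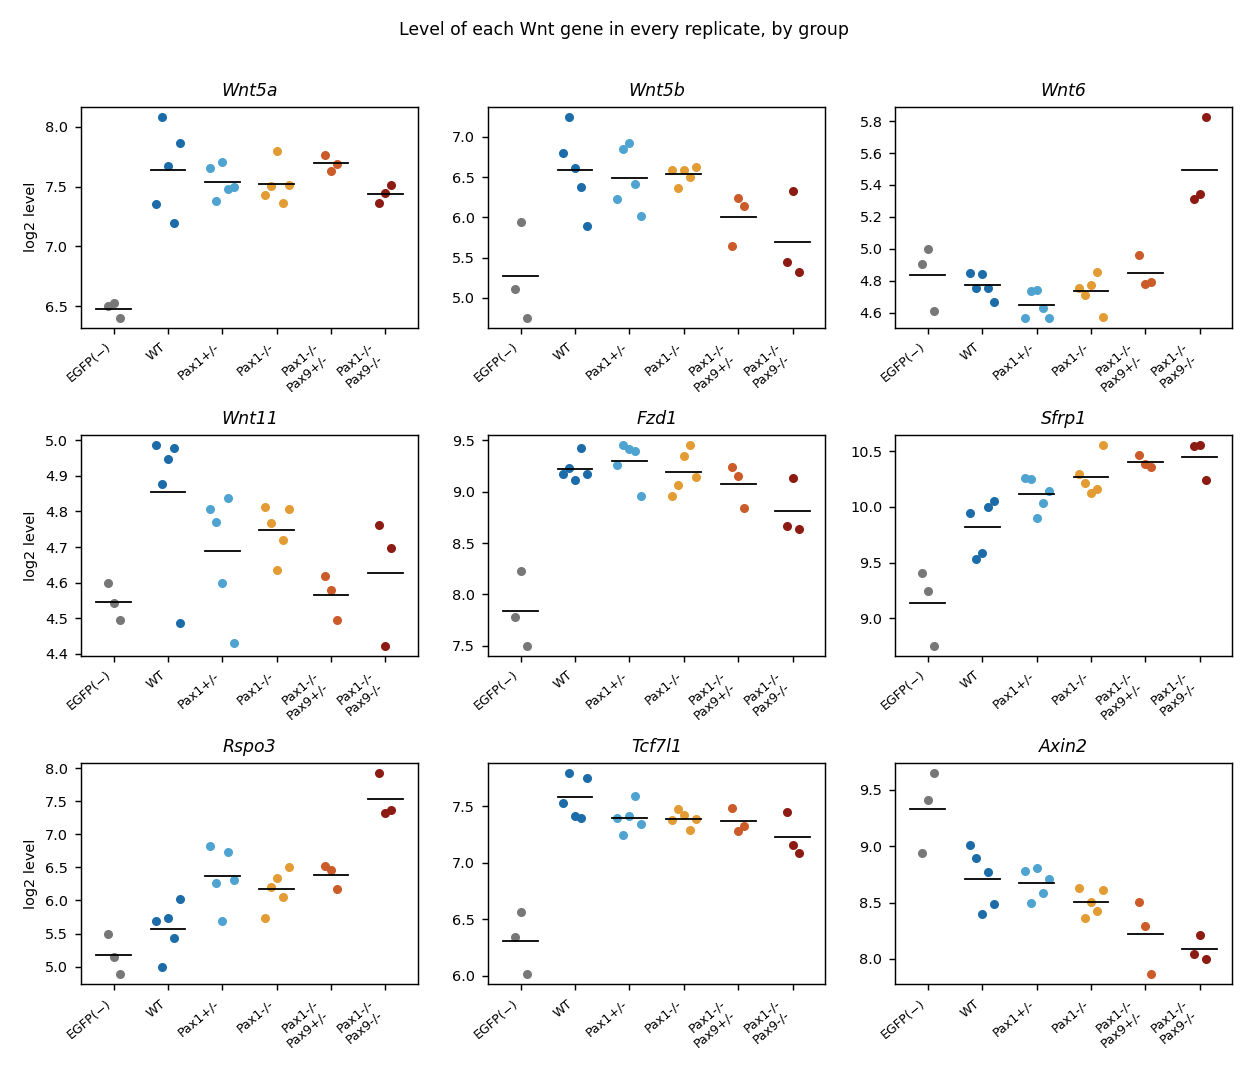
Log2 level of each of the 9 genes (vertical axes, 1 panel a gene) in the 24 replicates, grouped on the horizontal axis as EGFP(−), WT, *Pax1+/-*, *Pax1-/-*, *Pax1-/-Pax9+/-* and *Pax1-/-Pax9-/-*. Points are replicates and lines are group means. *Fzd1* rose from a mean of 7.84 in EGFP(−) to 9.22 in WT, and *Rspo3* had its highest mean, 7.54, in *Pax1-/-Pax9-/-*.

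The comparison of EGFP(+) with EGFP(−) cells asks which genes mark the *Pax1* expressing cells of the column. In WT, 5 of the 9 genes were higher in EGFP(+) cells, namely *Fzd1* (FC 2.62), *Wnt5b* (2.50), *Tcf7l1* (2.41), *Wnt5a* (2.23) and *Sfrp1* (1.62). *Axin2* was lower, and *Rspo3*, *Wnt11* and *Wnt6* were not called. Of all genes tested, 7.25% were called higher and 9.14% lower in this comparison. The 2 groups did not overlap in 4 of the 6 called genes (*Fzd1*, *Tcf7l1*, *Wnt5a* and *Sfrp1*), as in 19.8% of all genes. In *Pax1+/-* and in *Pax1-/-*, 6 genes were higher and *Axin2* lower, with a background of 8.2% higher and 9.66% lower in *Pax1+/-* and of 7.54% and 8.74% in *Pax1-/-*. All 3 comparisons use the same 3 EGFP(−) replicates, so they are not independent of each other.

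**Figure D2:**
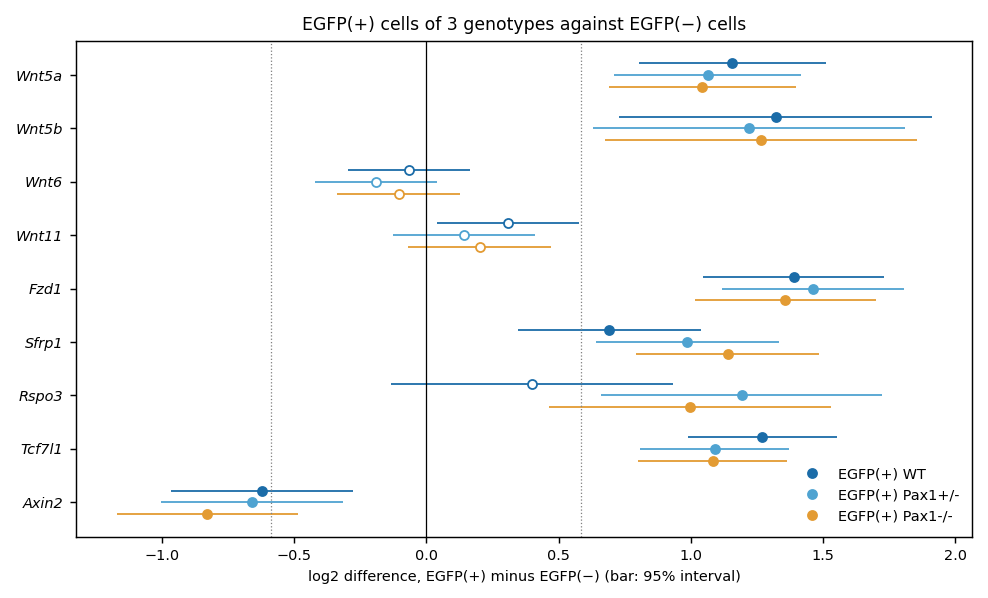
Log2 level in EGFP(+) minus EGFP(−) cells (horizontal axis) for the 9 genes (vertical axis) in WT, *Pax1+/-* and *Pax1-/-*, with 95% intervals of the limma fit. Filled points are called genes, open points are not called, and dotted lines mark an FC of 1.5. *Rspo3* was called in *Pax1+/-* (1.19) and *Pax1-/-* (0.996) and not in WT (0.40).

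EGFP(−) cells are what the sort left behind, and they held other lineages. All 9 macrophage and granulocyte markers tested and all 9 erythroid markers tested were lower in WT EGFP(+) cells than in EGFP(−) cells, as were 10 of 11 endothelial and 10 of 12 neuronal markers. The summed macrophage and granulocyte level was 4017 to 4971 in EGFP(−) and 81.8 to 329 in WT, and 1079 to 2779 and 69.8 to 319 without the granulocyte genes *S100a8* and *S100a9*. The summed erythroid level was 20350 to 22570 and 840 to 2827. The summed sclerotome level went the other way, from 1122 to 2505 in EGFP(−) up to 6802 to 8511 in WT. That sum includes *Pax1*, whose locus drove the sort, so part of its rise was fixed in advance. The part of these lineages in the differences of the Wnt genes was not tested, and fewer cells of a type and less RNA per cell cannot be told apart in such bulk samples.

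Among the ligands, *Wnt5a*, which guides the outgrowth and polarity of mesenchyme, stood at 6.505, 6.53 and 6.40 in EGFP(−) cells. In WT it was at 7.36, 8.09, 7.67, 7.20 and 7.87. Every WT replicate lay above every EGFP(−) replicate, by 1.16 on average (SE 0.17, adjusted p = 5.39e-05). The differences for *Pax1+/-* and *Pax1-/-* were 1.06 (adjusted p = 0.000114) and 1.04 (adjusted p = 0.000165). Of its 3 probes, 2 differed by 1.73 and 1.51 between WT and EGFP(−), and the third, detected on 11 of 28 arrays, by 0.24.

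*Wnt5b*, known from cartilage for its part in the maturation of chondrocytes, was at 5.11, 5.95 and 4.75 in EGFP(−) and at 6.80, 7.25, 6.62, 6.38 and 5.89 in WT. WT replicate 7 lay just below EGFP(−) replicate 2, so the groups overlapped. The difference was 1.32 (SE 0.28, adjusted p = 0.00202). In *Pax1+/-* (1.22, adjusted p = 0.00353) and *Pax1-/-* (1.26, adjusted p = 0.00301) all replicates lay above the EGFP(−) replicates. The probe was detected on 2 of the 3 EGFP(−) arrays and on every EGFP(+) array.

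The remaining ligands were near the limit of detection in this comparison. *Wnt6*, a ligand of epithelia and of surface ectoderm, was at 4.61 to 5.00 in EGFP(−) and 4.67 to 4.85 in WT, a difference of -0.06 (95% interval -0.30 to 0.17, adjusted p = 0.748). *Wnt11*, known from fish embryos for its part in cell movement, was detected on none of the 3 EGFP(−) arrays and on 2 of 6 WT arrays, so that its levels of 4.496 to 4.599 and 4.49 to 4.99 carry little more than background. A difference of *Wnt11* was not detectable at these signals (adjusted p = 0.101).

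*Fzd1*, a Frizzled receptor, was at 7.78, 8.23 and 7.50 in EGFP(−) cells and at 9.18, 9.23, 9.12, 9.43 and 9.17 in WT. The WT replicates lay close together and far above the highest EGFP(−) replicate. The *Fzd1* difference of 1.39 (SE 0.16, adjusted p = 5.45e-06) was accompanied by 1.46 in *Pax1+/-* (adjusted p = 2.49e-06) and 1.36 in *Pax1-/-* (adjusted p = 7.39e-06). Within chips 3, 4 and 5 the WT difference was 0.94, 2.04 and 1.39.

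*Tcf7l1*, the transcription factor also known as Tcf3, was at 6.35, 6.56 and 6.01 in EGFP(−) and at 7.53, 7.79, 7.42, 7.40 and 7.75 in WT. The difference was 1.27 (SE 0.13, adjusted p = 1.55e-06), with no overlap. It was 1.09 in *Pax1+/-* (adjusted p = 7.39e-06) and 1.08 in *Pax1-/-* (adjusted p = 9.94e-06). The probes of *Tcf7l1* agreed in direction and not in size, with 1.80 and 0.74 between WT and EGFP(−). Within chips 3, 4 and 5 the WT difference was 1.04, 1.25 and 1.19.

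Of the modulators, *Sfrp1*, which can sequester Wnts, was at 9.41, 9.24 and 8.75 in EGFP(−) and at 9.95, 9.53, 9.59, 9.999 and 10.05 in WT. The groups did not overlap, and the difference was 0.69 (SE 0.16, adjusted p = 0.00492). Without EGFP(−) replicate 3 it was 0.50 (adjusted p = 0.0477), an FC under 1.5. The differences were 0.99 in *Pax1+/-* (adjusted p = 0.000198) and 1.14 in *Pax1-/-* (adjusted p = 5.28e-05). Within chips 3, 4 and 5 the WT difference of *Sfrp1* was 0.32, 1.21 and 0.54.

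*Rspo3*, a secreted agonist that acts through Lgr receptors, was at 5.49, 5.15 and 4.88 in EGFP(−). It was at 5.68, 5.00, 5.74, 5.43 and 6.02 in WT, which overlapped EGFP(−). In *Pax1+/-* it was at 6.83, 6.26, 5.69, 6.73 and 6.32, and in *Pax1-/-* at 5.74, 6.21, 6.34, 6.05 and 6.51. All 10 of these mutant replicates lay above the EGFP(−) replicates. The *Rspo3* difference was 0.40 in WT (SE 0.25, adjusted p = 0.308), 1.19 in *Pax1+/-* (SE 0.25, adjusted p = 0.00185) and 0.996 in *Pax1-/-* (SE 0.25, adjusted p = 0.00825). That a call was made in the mutants and not in WT does not show that they differ, and the direct comparison of the genotypes is given with the *Pax1* alleles. Without EGFP(−) replicate 3 the *Pax1-/-* difference was 0.85 (adjusted p = 0.0534). Within chips 3, 4 and 5 it was 0.93, 1.40 and 0.25.

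*Axin2*, a reporter of beta-catenin signalling in many tissues, was the called gene that went down. It was at 8.94, 9.41 and 9.65 in EGFP(−) and at 9.02, 8.89, 8.40, 8.77 and 8.48 in WT. WT replicate 2 lay above EGFP(−) replicate 1, so the groups overlapped. *Axin2* fell by 0.62 (SE 0.16, adjusted p = 0.0101), by 0.66 in *Pax1+/-* (adjusted p = 0.00628) and by 0.83 in *Pax1-/-* (adjusted p = 0.00112). Blocked by chip the WT difference was -0.49 (adjusted p = 0.0346), an FC under 1.5. It was -0.77 within chip 3, -0.57 within chip 4 and 0.08 within chip 5. The call in WT was lost without EGFP(−) replicate 2 (-0.58) or 3 (-0.46) and without WT replicate 4 (-0.54) or 7 (-0.56), and that in *Pax1+/-* without EGFP(−) replicate 3 (-0.50).

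Blocked by chip, the other called genes kept their calls in WT, at 1.40 for *Fzd1*, 1.33 for *Wnt5b*, 1.22 for *Tcf7l1*, 1.03 for *Wnt5a* and 0.68 for *Sfrp1*. Over 17 settings other than the omission of a replicate, *Fzd1*, *Tcf7l1* and *Wnt5b* were each called in 15, *Wnt5a* in 14, *Sfrp1* in 13 and *Axin2* in 8. *Fzd1*, *Tcf7l1*, *Wnt5a* and *Wnt5b* kept the call whichever of the 8 replicates was omitted.

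The comparison of *Pax1+/-* and *Pax1-/-* with WT asks what the loss of 1 or both *Pax1* alleles does. None of the 9 genes was called by limma in either, where 0.194% of all genes were called higher and 0.224% lower in *Pax1+/-*, and 0.135% and 0.0897% in *Pax1-/-*. At an unadjusted p under 0.05 the count was 2 of 9 in each, *Rspo3* and *Sfrp1* both times, where 13.9% of all genes had such a p in *Pax1+/-* and 9.65% in *Pax1-/-*. The methods' t-test for *Pax1-/-* gave 1 unadjusted (*Rspo3*), with 1.7% of all genes, and 0 after adjustment. *Rspo3* differed by 0.79 (95% interval 0.35 to 1.23) in *Pax1+/-*, with an adjusted p of 0.105, and by 0.60 (95% interval 0.15 to 1.04) in *Pax1-/-*, with an adjusted p of 0.319. Without *Pax1+/-* replicate 3, the lowest of its group, the *Rspo3* difference was 0.96 (adjusted p = 0.0383). Arrays of 1 *Pax1-/-* replicate name, number 2, differed by 0.98 in *Rspo3*, more than the difference between the groups.

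*Sfrp1* was at 10.26, 10.25, 9.90, 10.04 and 10.14 in *Pax1+/-*. In *Pax1-/-* it was at 10.30, 10.22, 10.13, 10.16 and 10.56, all above the highest WT replicate of 10.05. The differences from WT were 0.29 (adjusted p = 0.287) and 0.45 (adjusted p = 0.164). The arrays averaged as *Pax1-/-* replicate 2 differed by 0.69 in *Sfrp1*, and those of replicate 3 by 0.44. *Axin2* was at 8.50 to 8.81 in *Pax1+/-* and 8.36 to 8.63 in *Pax1-/-*, inside or just below the WT range. *Fzd1*, *Tcf7l1*, *Wnt5a* and *Wnt5b* had differences from WT between -0.19 and 0.07 in both.

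The compound mutants ask what is added when *Pax9* is lost as well. In *Pax1-/-Pax9-/-*, 5 of the 9 genes were called against WT: *Rspo3* (FC 3.91), *Wnt6* (1.65) and *Sfrp1* (1.54) were higher, and *Wnt5b* (1.85-fold) and *Axin2* (1.55-fold) were lower. Of all genes, 3.38% were called higher and 3.62% lower. Replicates of the 2 groups did not overlap in 4 of these 5 genes, all but *Wnt5b*, as in 13.1% of all genes. Without the library labelled *Pax1-/-Pax9-/-* replicate 1, 3 were called (*Rspo3*, *Wnt6* and *Axin2*), with 5.79% of all genes. Blocked by chip series, 2 were called (*Rspo3* and *Wnt6*), with 1.68% of all genes, and with the arrays of series B alone 1 (*Rspo3*), with 0.658% of all genes.

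**Figure D3:**
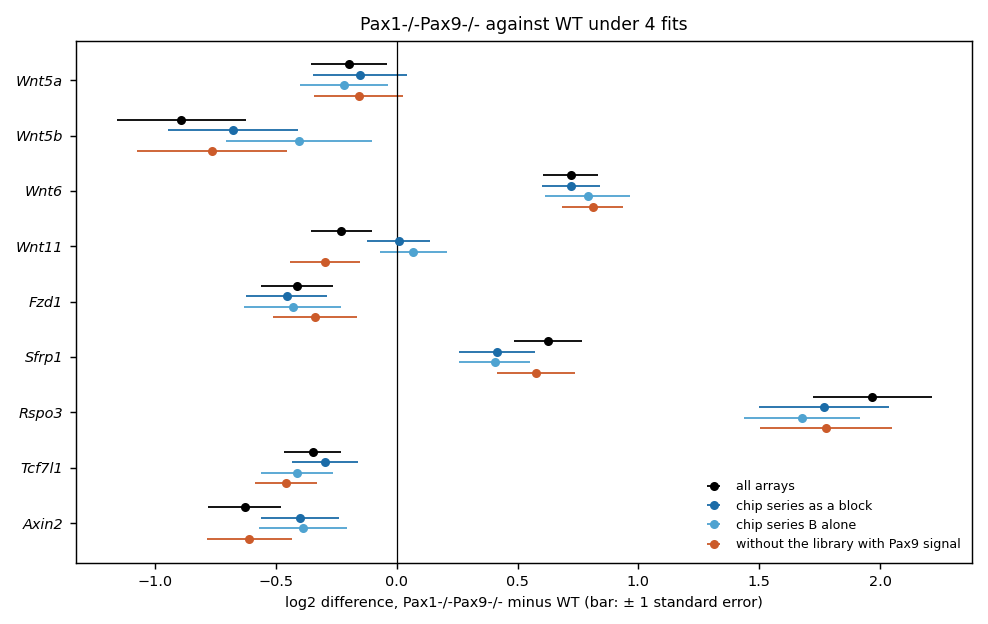
Log2 level in *Pax1-/-Pax9-/-* minus WT (horizontal axis) for the 9 genes (vertical axis), by the fit of all EGFP(+) replicates, without the library labelled *Pax1-/-Pax9-/-* replicate 1, blocked by chip series, and with arrays of series B alone. Bars are 1 SE to each side. *Rspo3* lay between 1.68 and 1.97 under these 4 fits and *Wnt6* between 0.72 and 0.81. The *Wnt6* values include a probe detected in *Pax1-/-Pax9-/-* alone.

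*Rspo3* was at 7.93, 7.32 and 7.38 in *Pax1-/-Pax9-/-*, above every other replicate of the series. In *Pax1-/-Pax9+/-* it was at 6.53, 6.46 and 6.17, above every WT replicate. The difference between *Pax1-/-Pax9-/-* and WT was 1.97 (SE 0.24, adjusted p = 6.84e-05), 1.78 without the library labelled replicate 1 (adjusted p = 0.00112), 1.77 blocked by chip series (adjusted p = 0.000491) and 1.68 within series B (adjusted p = 0.0158). *Rspo3* was called in 12 of 13 settings other than the omission of a replicate, and in all 8 omissions, with 1.78 to 2.08. Its 2 probes gave 1.46 and 2.48. Between the compound mutants, on 1 chip, the *Rspo3* difference was 1.15 (SE 0.27, adjusted p = 0.0838) without overlap, and 0.96 without the library labelled replicate 1 (adjusted p = 0.214). The means ran in the order EGFP(−), WT, *Pax1-/-*, *Pax1+/-*, *Pax1-/-Pax9+/-* and *Pax1-/-Pax9-/-*. Of the neighbours among the EGFP(+) groups, WT and *Pax1-/-*, and the 2 compound mutants, were compared and not called, and *Pax1+/-* overlapped both *Pax1-/-* and *Pax1-/-Pax9+/-*.

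*Wnt6* was at 5.32, 5.34 and 5.83 in *Pax1-/-Pax9-/-*, and no other replicate of the series was above 5.00. In *Pax1-/-Pax9+/-* it was at 4.96, 4.78 and 4.79. It was 0.72 higher in *Pax1-/-Pax9-/-* than in WT (SE 0.11, adjusted p = 0.000774) and 0.65 higher than in *Pax1-/-Pax9+/-* (SE 0.13, adjusted p = 0.0268). *Wnt6* was the only one of the 9 genes called between the compound mutants, where 0.127% of all genes were called higher and 0.187% lower. Of its 3 probes, ILMN_2901765 was detected on the 3 *Pax1-/-Pax9-/-* arrays alone and so passed the filter only through the group where it was high. It cannot stand as support for the difference. The other 2 probes, detected on 14 and 8 arrays, gave 0.79 and 0.39 between *Pax1-/-Pax9-/-* and WT and 0.76 and 0.26 between the compound mutants. With probes detected in a single group left out, an alternative chosen after seeing the data, *Wnt6* was 0.59 above WT (adjusted p = 0.0108), still called, and 0.51 above *Pax1-/-Pax9+/-* (adjusted p = 0.209), no longer called.

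Without the library labelled *Pax1-/-Pax9-/-* replicate 1, *Wnt6* was 0.81 above WT (adjusted p = 0.00128) and 0.74 above *Pax1-/-Pax9+/-* (adjusted p = 0.0235). These values, and most of the settings and omissions that follow, include ILMN_2901765, so they do not show that the difference holds without it. Over 13 settings other than the omission of a replicate, *Wnt6* was called in 8 against WT and in 5 between the compound mutants. The latter call was also lost without *Pax1-/-Pax9-/-* replicate 3 (0.48, adjusted p = 0.136) and without *Pax1-/-Pax9+/-* replicate 2 (0.62, adjusted p = 0.108) or 3 (0.62, adjusted p = 0.127). Against WT, *Wnt6* without *Pax1-/-Pax9-/-* replicate 3 was at 0.55 (adjusted p = 0.00831), an FC under 1.5, and within series B at 0.79 (adjusted p = 0.0904).

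*Sfrp1* was at 10.47, 10.39 and 10.36 in *Pax1-/-Pax9+/-* and at 10.55, 10.56 and 10.24 in *Pax1-/-Pax9-/-*, and all 6 lay above WT. The differences from WT were 0.58 (adjusted p = 0.0195, FC under 1.5) and 0.63 (SE 0.14, adjusted p = 0.00889). Within series B the latter was 0.40 (adjusted p = 0.313), blocked by chip series 0.42 (adjusted p = 0.233), and without the library labelled replicate 1 0.58 (adjusted p = 0.0394, FC under 1.5). Between the compound mutants *Sfrp1* differed by 0.04 (95% interval -0.28 to 0.37), and by -0.0061 without that library. The *Sfrp1* call was lost in 4 of the 8 omissions of a replicate, those of WT replicates 3 and 4 and of *Pax1-/-Pax9-/-* replicates 1 and 2.

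*Axin2* was at 8.50, 8.29 and 7.86 in *Pax1-/-Pax9+/-* and at 8.04, 8.21 and 7.99 in *Pax1-/-Pax9-/-*. The latter lay below all WT replicates. Against WT *Axin2* fell by 0.63 in *Pax1-/-Pax9-/-* (SE 0.15, adjusted p = 0.0135) and by 0.49 in *Pax1-/-Pax9+/-* (adjusted p = 0.0536). Without the library labelled replicate 1 the former fell by 0.61 (adjusted p = 0.0445). It was -0.40 blocked by chip series (adjusted p = 0.271) and -0.39 within series B (adjusted p = 0.455), and the call was lost without WT replicate 2 (-0.55) or 3 (-0.58) and without *Pax1-/-Pax9-/-* replicate 3 (-0.58). The means of *Axin2* went down in the order EGFP(−), WT, *Pax1+/-*, *Pax1-/-*, *Pax1-/-Pax9+/-* and *Pax1-/-Pax9-/-*. Of the neighbours among the EGFP(+) groups, WT and *Pax1+/-*, *Pax1-/-* and *Pax1-/-Pax9+/-*, and the 2 compound mutants were compared and not called, and *Pax1+/-* overlapped *Pax1-/-*.

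*Wnt5b* was at 5.65, 6.24 and 6.14 in *Pax1-/-Pax9+/-* and at 5.44, 6.32 and 5.33 in *Pax1-/-Pax9-/-*. *Pax1-/-Pax9-/-* replicate 2 lay inside the WT range, at 5.89 and above, and the others below it. *Wnt5b* fell by 0.89 in *Pax1-/-Pax9-/-* (SE 0.27, adjusted p = 0.0413). The value was -0.76 without the library labelled replicate 1 (adjusted p = 0.138), -0.68 blocked by chip series (adjusted p = 0.26) and -0.40 within series B (adjusted p = 0.687), and 5 of 8 omissions of a replicate lost the call.

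*Fzd1*, *Tcf7l1*, *Wnt5a* and *Wnt11* were not called in the compound mutants. *Fzd1* was at 8.66, 9.13 and 8.64 in *Pax1-/-Pax9-/-*, a difference of -0.41 from WT (adjusted p = 0.0844) and of -0.34 without the library labelled replicate 1 (adjusted p = 0.243), and with arrays centred on their medians it was called at -0.62 (adjusted p = 0.0424). *Tcf7l1* was at 7.45, 7.15 and 7.09, a difference of -0.35 (adjusted p = 0.0655), and of -0.46 without that library (adjusted p = 0.0395, FC under 1.5). *Wnt5a* was at 7.36, 7.45 and 7.51, a difference of -0.20 (95% interval -0.53 to 0.13), and of -0.16 without it (adjusted p = 0.645). In these 3 genes every *Pax1-/-Pax9-/-* replicate lay above the EGFP(−) replicates, for *Fzd1* at 8.64 or more against at most 8.23. The 2 groups lie on chips of different series, and this difference was not tested. *Wnt11*, near background, differed by -0.23, and by -0.30 without that library (adjusted p = 0.219).

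No gene of the 9 was called by limma in *Pax1-/-Pax9+/-* against WT, where 2.48% of all genes were called higher and 2.28% lower. At an unadjusted p under 0.05 the count was 5 (*Axin2*, *Rspo3*, *Sfrp1*, *Wnt11* and *Wnt5b*), where 22.9% of all genes had such a p. The methods' ANOVA with unequal variance gave 1 unadjusted (*Rspo3*), with 4.46% of all genes, and 0 after adjustment. *Rspo3* was 0.81 higher (SE 0.24, adjusted p = 0.0506), 0.62 blocked by chip series (adjusted p = 0.514) and 0.52 within series B (adjusted p = 0.637). Against *Pax1-/-*, where 3.9% of all genes were called higher and 4.22% lower, none of the 9 was called by limma and none had an unadjusted p under 0.05, as 26.9% of all genes did, and no other test was run. The largest of these differences was that of *Wnt5b*, -0.52 (adjusted p = 0.215).

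**Figure D4:**
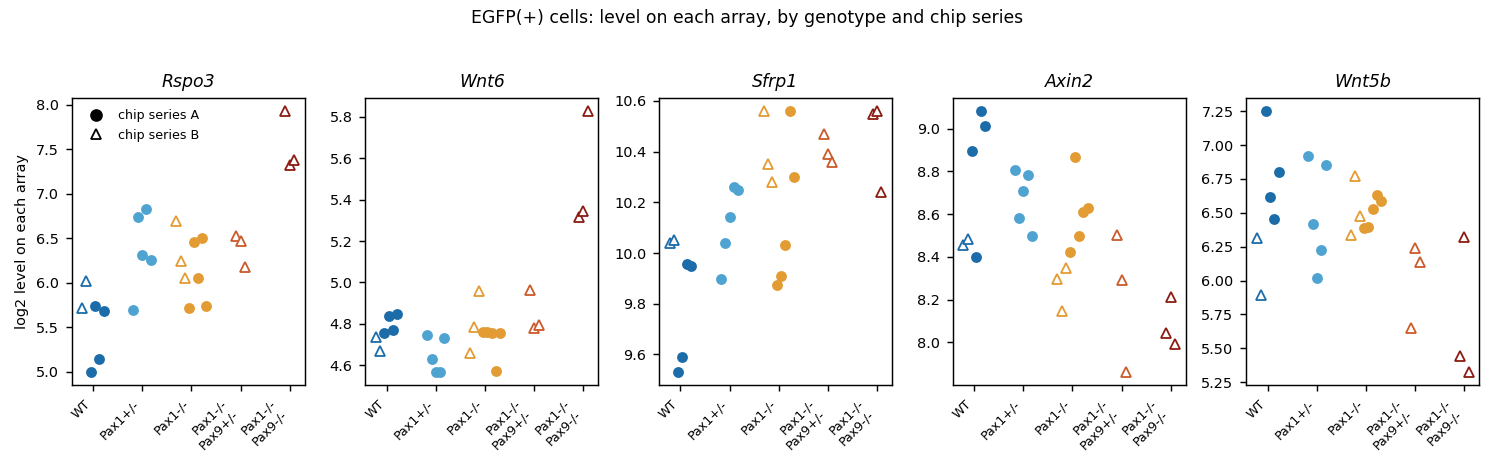
Log2 level of *Rspo3*, *Wnt6*, *Sfrp1*, *Axin2* and *Wnt5b* (vertical axes) on single arrays by EGFP(+) genotype (horizontal axis). Filled circles are arrays of series A and open triangles arrays of series B. *Rspo3* and *Wnt6* in *Pax1-/-Pax9-/-* lay above the WT arrays of both series. The *Wnt6* levels include the probe detected in *Pax1-/-Pax9-/-* alone.

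Calls among markers of other lineages between *Pax1-/-Pax9-/-* and WT stand beside 3.38% of all genes called higher and 3.62% lower. None of the 9 macrophage and granulocyte, 12 neuronal, 6 neural progenitor, 2 neural crest, 5 muscle, 7 epithelial and 1 notochord markers was called. Meanwhile 1 of 11 endothelial markers (*Tek*) and 1 of 5 tendon markers (*Scx*) were higher and 1 of 9 erythroid markers (*Slc4a1*) was lower. The summed endothelial level was 467 to 622 against 117 to 407 in WT, without overlap, and without *Tek* 268 to 379 against 111 to 363. The summed tendon level was 4433 to 5033 against 3717 to 4297, also without overlap. Of the 10 sclerotome and disc genes, 2 were higher and 3 lower, and their summed level was 6120 to 6356 against 6802 to 8511 in WT. The targeted genes *Pax1* and *Pax9* are among these 10. Without the library labelled replicate 1, the called markers were *Tek* and the neural progenitor gene *Pax6*, higher, and 3 sclerotome and disc genes (*Col2a1*, *Pax1* and *Pax9*), lower. The part of these shifts in the differences of the Wnt genes was not tested.

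A wider list of 101 Wnt pathway genes, grouped by role and holding the 9 genes, gives their setting. It had 82 genes tested, and 73 without the 9. In WT EGFP(+) against EGFP(−) cells, 15 of the 82 were higher and 9 lower. The share over all genes was 7.25% higher and 9.14% lower, and the list's median difference was 0.16 against 0.06. Without the 9 genes these counts were 10 higher and 8 lower of 73. By role, 6 of 15 receptors and co-receptors and 4 of 11 nuclear effectors were higher, whereas 4 of 11 feedback and target genes were lower and none higher. Blocked by chip, 2 of these 4 were still called (*Tnfrsf19* and *Apcdd1*). For cytoplasmic components the counts were 0 higher and 1 lower of 15, for ligands 2 and 2 of 12, for secreted inhibitors 1 and 1 of 10, and for R-spondins with their receptors 2 and 0 of 6.

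**Figure D5:**
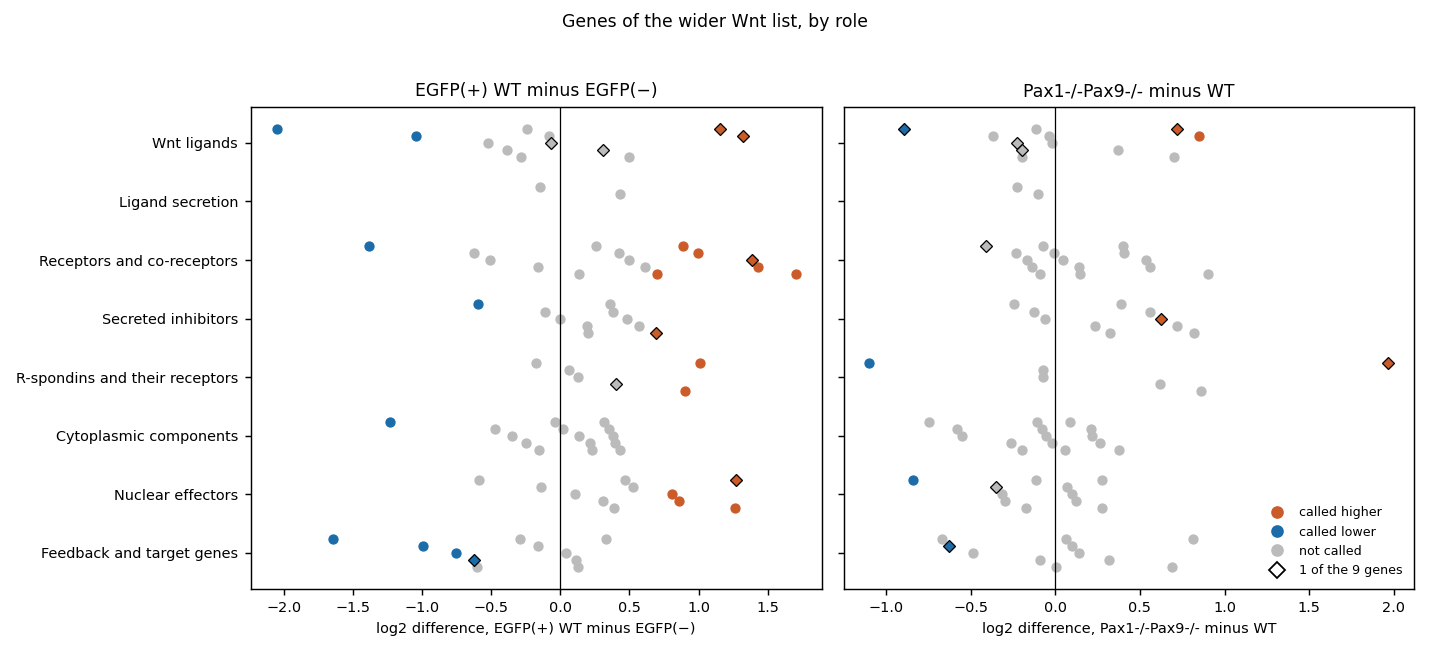
Log2 differences of the wider list of Wnt pathway genes by role (vertical axis), for WT EGFP(+) minus EGFP(−) cells and for *Pax1-/-Pax9-/-* minus WT (horizontal axes). Diamonds are the 9 genes described here and circles the other genes, filled where called. Receptors had a median of 0.50 in the EGFP comparison, and feedback and target genes one of -0.29.

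Among the receptors, *Fzd8* was 1.70 higher (adjusted p = 1.33e-07), *Ror2*, a receptor for Wnt5a, 1.43 higher (adjusted p = 2.99e-05) and *Fzd2* 0.89 higher (adjusted p = 8.86e-05), whereas *Fzd10* fell by 1.38 (adjusted p = 0.000463). The co-repressors *Tle2* and *Tle1* were 1.27 (adjusted p = 2.56e-05) and 0.86 higher (adjusted p = 0.000163), as was the beta-catenin cofactor *Bcl9l* by 0.81 (adjusted p = 0.00177). Of the R-spondin group, *Rspo2* was 1.01 higher (adjusted p = 0.00209) and its receptor *Lgr5* 0.90 higher (adjusted p = 0.0164). The ligands of neural tube and ectoderm *Wnt7a* and *Wnt7b* fell by 2.05 (adjusted p = 8.09e-08) and 1.05 (adjusted p = 0.000228), each detected on 3 of 3 EGFP(−) arrays but on 1 of 6 WT arrays, so that their WT levels lie near background. Beside *Axin2*, the targets *Tnfrsf19*, *Apcdd1* and *Myc* fell by 1.65 (adjusted p = 0.00397), 0.99 (adjusted p = 0.00555) and 0.75 (adjusted p = 0.0493). Blocked by chip, *Myc* was at -0.68 (adjusted p = 0.0585). The polarity gene *Celsr1* fell by 1.23 (adjusted p = 0.011) and the inhibitor *Draxin* by 0.59 (adjusted p = 0.0309).

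In the other EGFP comparisons the share of all genes called was 8.2% higher and 9.66% lower in *Pax1+/-*, and 7.54% and 8.74% in *Pax1-/-*. The wider list of 82 tested genes had 16 genes higher and 13 lower in *Pax1+/-*, and 15 and 8 in *Pax1-/-*. Those with the smallest adjusted p among the genes outside the 9 were, in *Pax1+/-*, *Fzd8* (1.14), *Ror2* (1.49), *Tle1* (1.004) and *Tle2* (1.19), higher, and *Wnt7a*, *Fzd10* (-1.75), *Daam1* (-0.98) and *Wnt7b* (-1.10), lower. In *Pax1-/-* they were *Fzd8* (1.31), *Tle2* (1.18), *Fzd2* (0.87) and *Ror2* (1.18), higher, and *Wnt7a* (-1.91), *Wnt7b* (-1.09), *Apcdd1* (-1.32) and *Fzd10* (-1.18), lower. In *Pax1+/-*, *Wnt7a* was detected on none of the 5 arrays and was at least 3.3-fold lower than in EGFP(−) cells (adjusted p = 3.82e-08). *Daam1*, a formin of the polarity branch, was the only gene of the list called between *Pax1+/-* and WT (-0.63, adjusted p = 0.00642), and blocked by chip series it was at -0.55 (adjusted p = 0.076). Between *Pax1-/-* and WT no gene of the list was called.

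In *Pax1-/-Pax9-/-* against WT, 4 of the 82 genes of the wider list were higher and 4 lower, near the 3.38% and 3.62% of all genes, and 5 of these 8 are among the 9 genes. Without the library labelled replicate 1 the counts were 4 and 3, with 5.79% of all genes called. The 3 that are not among the 9 were *Wnt9b*, *Lgr5* and *Tle1*. *Tle1* fell by 0.84 (adjusted p = 0.00069), by 0.81 without the library labelled replicate 1 (adjusted p = 0.00513), by 0.83 blocked by chip series (adjusted p = 0.00174) and by 0.91 within series B (adjusted p = 0.0186). *Lgr5* fell by 1.10 (adjusted p = 0.00601) and by 1.17 without that library (adjusted p = 0.0142), and its value blocked by chip series was -0.75 (adjusted p = 0.168). *Wnt9b* was 0.85 higher (adjusted p = 0.00819), 0.89 without that library (adjusted p = 0.0194) and 0.15 with the block (adjusted p = 0.855). In *Pax1-/-Pax9+/-* the ligand *Wnt9b*, the agonist *Rspo2* and the inhibitors *Wif1* and *Sfrp5* were higher than in WT, by 1.18, 0.85, 0.90 and 1.34 (adjusted p = 0.00295, 0.0292, 0.0303 and 0.0405). Blocked by chip series they were at 0.48, 0.52, 0.39 and -0.03 and none was called. Against *Pax1-/-*, 5 genes of the list were higher and 1 lower in *Pax1-/-Pax9+/-*, where 3.9% of all genes were higher and 4.22% lower. The 4 higher genes with the smallest adjusted p were *Wnt9b* (1.05), *Fzd8* (0.67), *Wif1* (0.98) and *Sfrp5* (1.55), and the lower one was *Nkd2*, an inhibitor of the pathway, which was detected on none of the 3 *Pax1-/-Pax9+/-* arrays and was at least 1.44-fold lower. Blocked by chip series, and within series B, none of the 6 was called. Of the wider list, between the compound mutants *Wnt6* alone was called.

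Over the 24 replicates the levels of some members ran together. Pearson's r was 0.90 for *Wnt5a* with *Tcf7l1*, 0.87 for *Fzd1* with *Tcf7l1* and 0.78 for *Sfrp1* with *Rspo3*, and -0.79 for *Axin2* with *Sfrp1* and -0.74 for *Axin2* with *Rspo3*. Of all genes tested, those with the highest r were *Shisa2* with *Tcf7l1* (0.96), *Yap1* with *Fzd1* (0.93), *Adamts15* with *Sfrp1* (0.91), *Flrt2* with *Wnt5b* (0.87), *Fam110a* with *Axin2* (0.87), *Nr2f2* with *Wnt6* (0.84) and *Thbs2* with *Rspo3* (0.82). For *Wnt5a* it was *Tcf7l1* itself. These replicates share chips and fall into groups, so that the values describe this series only.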

How the data were processed

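RNA of the EGFP-sorted cells had been linearly amplified, labelled with biotin and hybridised to Illumina MouseWG-6 arrays. Per the deposited files, intensities were background subtracted by the authors in BeadStudio and not normalized, so that some are below 0, and each has a deposited detection p-value against the array's negative control probes. A second table holds log2 values that the authors had quantile normalized in GeneSpring GX, and it was used as an alternative. Once sorted, its columns differed by at most 0.0193, and each ranked its probes as that array's intensities did (Spearman correlation of at least 0.999998). The sources used here do not give its added constant. All 28 arrays were kept, and columns not used number 0.

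The intensities were corrected by normexp (offset 16), quantile normalized and then put on the log2 scale. This used limma 3.58.1 under R 4.3.3 and statmod 1.5.0. Of 45281 probes, 27688 had a detection p-value under 0.05 on at least 3 arrays and were kept, 22486 of them with 1 gene. Symbols came from the platform annotation (34885 probes with 1 symbol, 18 with several, 10378 with none). Arrays that shared genotype and replicate name were averaged, since the labels do not say whether the 4 such pairs repeat 1 RNA (r 0.947 to 0.984 between their arrays). One lmFit and eBayes model took EGFP(−), WT, *Pax1+/-* and *Pax1-/-* cells, another the 5 EGFP(+) genotypes. The p-values measure only the spread between these samples, which may be technical, and precision is limited by how many arrays there are.

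The members and lists were chosen with earlier results of these data known. All 9 genes are named in every comparison. Other genes of the wider list are named where called, up to 3 per role and direction for WT EGFP(+) against EGFP(−) and up to 4 per direction elsewhere, by adjusted p. The fit was tested on simulated data. Of the kept probes, 171 were detected in a single group, and leaving them out is an alternative chosen after seeing the data. The other alternatives were the background correction, scaling, filter, probe rule, chip, replicate name, omission of a replicate and the methods' tests.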

Additional observations from a re-analysis of the deposited data

Results flagged for a closer look

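*Wnt11* in WT replicate 7 stood apart from the other 4 WT replicates, at a log2 level of 4.486 against 4.876 to 4.987. The gap was 0.78 of the range of the group. Of 27 combinations of gene and group with enough replicates this was the only such value, and chance flags about 1 in 20. *Wnt11* was detected on 2 of 6 WT arrays. WT replicate 7 is an array of chip 2.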

How the results depend on the processing

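Of 1872 values of a gene in a comparison under an alternative, 1681 kept direction and side of the threshold, 108 lost a call, 19 gained one, 63 of uncalled genes changed sign and 1 reversed, *Axin2* in WT EGFP(+) against EGFP(−) cells on chip 5 alone (0.07899). The causes were not tested beyond what an alternative's own construction shows, such as fewer arrays.

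Of the 9 genes, 6 were called in WT EGFP(+) against EGFP(−) cells, and 0, 3 and 0 on chips 3, 4 and 5 alone. For *Pax1+/-* the 7 became 0 on chip 3 and 1 on chip 5, and for *Pax1-/-* the 7 became 0 on both. In *Pax1-/-* against WT the methods' t-test called 1 unadjusted in place of 0, and 227 of all genes in place of 30. In *Pax1-/-Pax9+/-* against WT the 0 became 1 with signals floored at 1, 2 with the probe of the highest level and 1 with the methods' ANOVA with unequal variance, unadjusted. The calls over all genes were then 407, 801 and 597, in place of 636. In *Pax1-/-Pax9-/-* against WT the 5 became 2 with the authors' log2 values, 2 with the chip as a random block, 2 with the chip series as a block, 1 with series B alone, and 3 unadjusted or 0 adjusted with the methods' ANOVA. In the same order, 446, 226, 224, 88, and 766 or 0 of all genes were called, in place of 936. Between the compound mutants the 1 became 0 with arrays centred on the median, with series B alone, with the adjusted ANOVA and with probes detected in a single group left out (chosen after seeing the data). There 19, 24, 0 and 39 of all genes were called, in place of 42. With the authors' log2 values, the probe of the highest level and the unadjusted ANOVA the count stayed 1, but the gene called was *Rspo3* in place of *Wnt6*. These settings called 31, 38 and 310 of all genes. Without 1 replicate at a time, 4 to 6, 6 to 7 and 6 to 7 were called in the EGFP comparisons, 0 to 1 in *Pax1+/-*, 0 in *Pax1-/-*, 0 to 2 in *Pax1-/-Pax9+/-* and 2 to 5 in *Pax1-/-Pax9-/-* against WT, 0 in *Pax1-/-Pax9+/-* against *Pax1-/-*, and 0 to 1 between the compound mutants. For all genes these omissions gave 1980 to 2211, 2104 to 2420 and 1903 to 2151 calls in the EGFP comparisons. Against WT they gave 21 to 110 in *Pax1+/-*, 9 to 46 in *Pax1-/-*, 195 to 1320 in *Pax1-/-Pax9+/-* and 445 to 1570 in *Pax1-/-Pax9-/-*. They gave 590 to 1263 in *Pax1-/-Pax9+/-* against *Pax1-/-*, and 18 to 55 between the compound mutants. 

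Samples of the same replicate name showed little shared deviation. Over 46 pairs, r of the deviations ran from -0.18 to 0.14, over 0.1 in 1 pair. The deviations are from means of few replicates, so these values cannot exclude that the names pair samples. With the replicate block, 5, 7 and 7 of the 9 genes were called in the EGFP comparisons, 0 in *Pax1+/-*, 0 in *Pax1-/-*, 4 in *Pax1-/-Pax9+/-* and 5 in *Pax1-/-Pax9-/-* against WT, 0 in *Pax1-/-Pax9+/-* against *Pax1-/-*, and 0 between the compound mutants. Over all 13373 genes, the same block called 1944, 2265 and 2002 in the EGFP comparisons, 16 in *Pax1+/-* and 11 in *Pax1-/-* against WT. In *Pax1-/-Pax9+/-* against WT it called 1228 in place of 636, and in *Pax1-/-Pax9-/-* 1430 in place of 936. It called 1104 in *Pax1-/-Pax9+/-* against *Pax1-/-*, and 43 between the compound mutants.

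Over all genes, the count of calls and its range over alternatives with all replicates was 2192 (591 to 2327) for WT, 2389 (225 to 2498) for *Pax1+/-* and 2177 (484 to 2337) for *Pax1-/-* EGFP(+) against EGFP(−) cells. Against WT it was 56 (0 to 71) in *Pax1+/-*, 30 (0 to 227) in *Pax1-/-*, 636 (0 to 1228) in *Pax1-/-Pax9+/-* and 936 (0 to 1430) in *Pax1-/-Pax9-/-*. It was 1086 (1 to 1309) in *Pax1-/-Pax9+/-* against *Pax1-/-* and 42 (0 to 310) between the compound mutants. Counts of 0 came from single chips or the adjusted ANOVA. Centring on the median moved the median of all genes by 0.12 in *Pax1+/-* and by -0.11 in *Pax1-/-Pax9-/-* against WT and in *Pax1-/-Pax9+/-* against *Pax1-/-*. Higher and lower calls in *Pax1-/-Pax9-/-* against WT were 452 and 484, with floored signals 241 and 527, and centred 163 and 651. For *Pax1-/-Pax9+/-* against WT they were 331 and 305, 122 and 285, and 101 and 210, and against *Pax1-/-* 522 and 564, 299 and 560, and 205 and 834. For *Pax1+/-* against WT they were 26 and 30, and centred 56 and 15, for *Pax1-/-* against WT 18 and 12, 1 and 0, and 8 and 1, and between the compound mutants 17 and 25, 6 and 35, and 4 and 15. *Wnt6* and *Wnt11* lie near background, which limits what their values show.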
